A study of Mus musculus with 6 samples.

Results

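The genes described here act in the G2 phase of the cell cycle and in mitosis. They were taken as a list of 42 mouse genes, which was chosen with earlier results of these data known. Of these, 41 had a probe set on the array that carries 1 gene name only, out of 19938 genes with such a probe set. The exception was Ccnb1, the gene of cyclin B1, which was not analysed here, and the shugoshin gene listed under its older symbol Sgol1 is given below as Sgo1. For each gene the probe set with the highest mean over the 6 arrays was used, so the choice of probe set did not depend on the difference between the groups.

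Expression was measured in enterospheres, floating spheres of neural progenitor cells grown from the gut muscle of C57BL/6 mice at birth. Both groups had spent 4 and then 5 days in medium with epidermal and fibroblast growth factor, and had then been moved to a differentiation medium with ascorbic acid phosphate and without those factors. After 1 day there, the T3 group (3 samples) received triiodothyronine for 1 day at 100 nM, the labels' unit nm being read as nM, and the control group (3 samples) received none. Each sample pooled the gut of 3 mice and was hybridised to 1 array, and the number of arrays limits the precision. The labels say that T3 was added to only part of the dishes. They do not say whether samples of the 2 groups share animals, or whether a replicate number marks a shared preparation.

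Cells enter mitosis when Cdk1, the mitotic cyclin-dependent kinase, is bound by cyclins A2, B1 and B2 and freed of its inhibitory phosphates. Aurora and Polo-like kinases then build the spindle, kinesins and kinetochore proteins attach and move the chromosomes, a checkpoint holds the anaphase-promoting complex back until all are attached, and a contractile ring divides the cell. Most of these genes are transcribed in late S phase to mitosis and repressed in G1 and in resting cells, through a promoter element called the cell cycle genes homology region (CHR) that the DREAM and MuvB complexes bind, and through CCAAT boxes bound by NF-Y. In the newborn gut, dividing enteric progenitors express them, while neurons that have left the cycle do not.

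The promoters of the list carry these elements, and a few are shown because they bear both kinds, because they lack them, or because the gene behaved differently from the rest. RefSeq promoters of build GRCm38.p6 were at hand for 36 of the 42 genes, each 250 bases before to 50 bases after the start site. The stretches below run from 120 bases before to 30 bases after it, 5′ to 3′ on the strand of the gene. Capitals mark TTTGAA or TTTAAA (CHR) and CCAAT, read on both strands, so that TTCAAA and ATTGG are their reverse.
Ccnb2 (chr9:70421525-70421674, minus strand): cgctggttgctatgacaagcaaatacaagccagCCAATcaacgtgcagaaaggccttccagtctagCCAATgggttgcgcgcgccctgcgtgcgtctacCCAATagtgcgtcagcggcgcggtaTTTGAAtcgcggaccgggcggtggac
Cdk1 (chr10:69352883-69353032, minus strand): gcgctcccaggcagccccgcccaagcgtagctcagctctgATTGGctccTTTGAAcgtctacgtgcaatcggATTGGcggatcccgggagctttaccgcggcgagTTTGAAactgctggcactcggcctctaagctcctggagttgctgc
Top2a (chr11:99024160-99024309, minus strand): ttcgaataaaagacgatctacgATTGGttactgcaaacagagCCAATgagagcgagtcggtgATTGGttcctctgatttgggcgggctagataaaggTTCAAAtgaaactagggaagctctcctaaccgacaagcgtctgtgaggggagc
Kif4 (chrX:100625945-100626094, plus strand): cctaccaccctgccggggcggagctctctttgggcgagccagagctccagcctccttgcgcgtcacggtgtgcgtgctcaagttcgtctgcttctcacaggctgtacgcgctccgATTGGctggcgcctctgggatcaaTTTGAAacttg
Cenpa (chr5:30666766-30666915, plus strand): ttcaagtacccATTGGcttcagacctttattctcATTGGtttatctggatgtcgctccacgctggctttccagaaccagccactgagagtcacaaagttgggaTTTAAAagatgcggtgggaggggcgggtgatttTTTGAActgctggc
Nusap1 (chr2:119618178-119618327, plus strand): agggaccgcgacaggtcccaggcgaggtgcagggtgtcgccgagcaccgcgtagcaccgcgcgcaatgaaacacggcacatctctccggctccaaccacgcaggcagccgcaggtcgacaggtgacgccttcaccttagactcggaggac

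The stretch of Ccnb2 has 3 CCAAT boxes and, just past the start site, 1 CHR, and that of Nusap1 has neither. Over the full windows, 30 of the 36 listed genes (83.3%) held a CHR match, against 30.6% of all 27025 genes with a tabled promoter. CCAAT was found in 29 of the 36 (80.6%), against 41.1%, and both in 26 (72.2%), against 12.2%. Counting only CHR matches that begin within 50 bases of the start site, a window chosen after the matches were seen, left 27 of the 36 genes (75%), against 9.54% of all genes. A match of letters is not a bound site, and a window without one says nothing of the factor. The list is made of cell cycle genes, so the excess of these letters describes the list and is no response to T3.

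**Figure D1:**
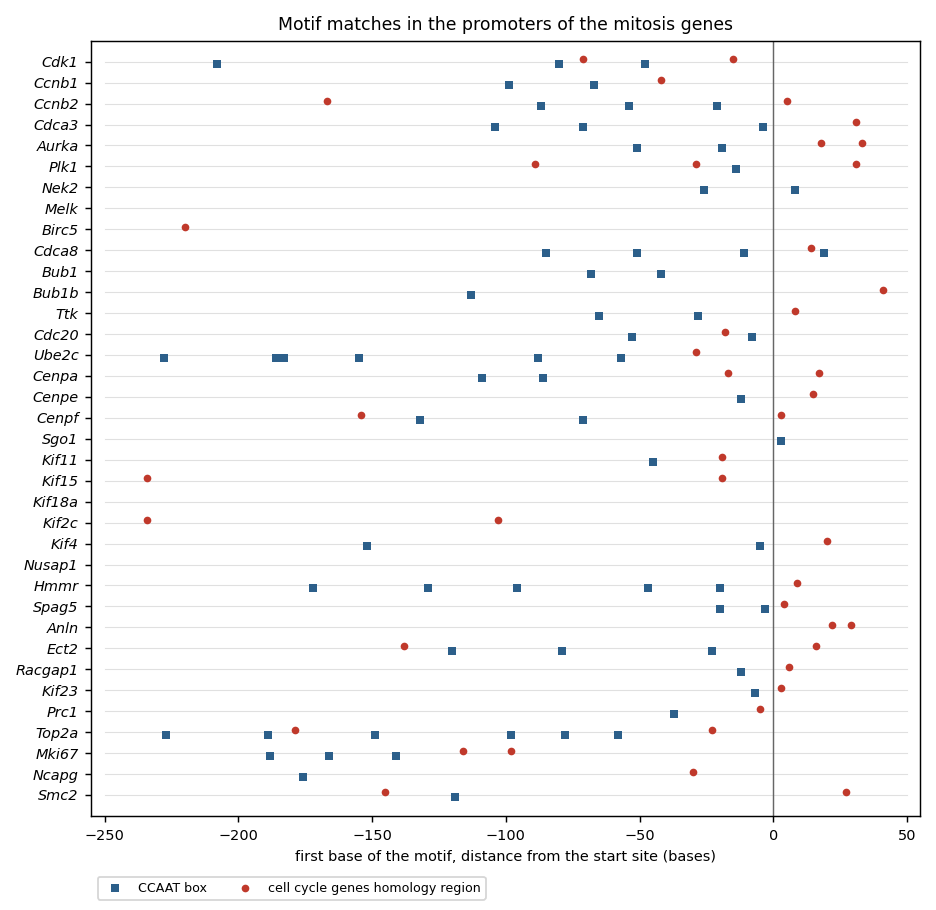
Positions of CHR matches (red circles) and CCAAT matches (blue squares) relative to the start site, in bases, in the promoters of the 36 listed genes that had one; for the 2 genes with several start sites 1 is drawn. Most rows have a red circle within 50 bases of the start site and blue squares before it, whereas Nusap1, Melk and Kif18a have neither.

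None of the 41 mitosis genes passed the test for T3 against control, while 37 of them lay above 0. The median log2 difference (T3 minus control, on normalised log2 signal) was 0.22 and the values ran from -0.08 for Cdc25c to 0.47 for Nusap1. Over all 19938 genes the median was 0.00877 and 53.3% lay above 0. By limma with Benjamini-Hochberg adjustment over all genes and a threshold of 0.05, the count of members was 0 higher and 0 lower, against 3.1% of all genes called, 2.28% higher and 0.823% lower. The smallest adjusted p was 0.0729, for Anln. At an unadjusted p under 0.05 stood 20 of the 41, all with the higher mean in T3, against 8.92% of all genes in that direction and 13.7% in both. For 15 of the 41 genes all 3 T3 arrays lay above all 3 control arrays, against 11.9% of all genes, and for 0 all lay below, against 7.55%. These shares describe genes that vary together, as shown next, and are no test of the list.

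The differences were small for this design. The smallest difference of any gene called over the whole array was 0.31 on the log2 scale, and 5 members exceeded it, namely Nusap1, Kif4, Anln, Ccna2 and Top2a. The spread within groups was also wider than usual, with a median within-group SD of 0.155 among the members against 0.109 over all genes. That the hormone reached the cells was seen in Hr, a corepressor gene, whose log2 values were 8.58, 8.66 and 8.52 in T3 replicates 1 to 3 and 6.72, 6.60 and 6.67 in control replicates 1 to 3. Klf9, a transcription factor gene, had 10.51, 10.43 and 10.49 in T3 and 8.60, 8.75 and 8.50 in the controls, and rose by 1.86 ± 0.08 (SE) with adjusted p = 3.42e-05 (limma).

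**Figure D2:**
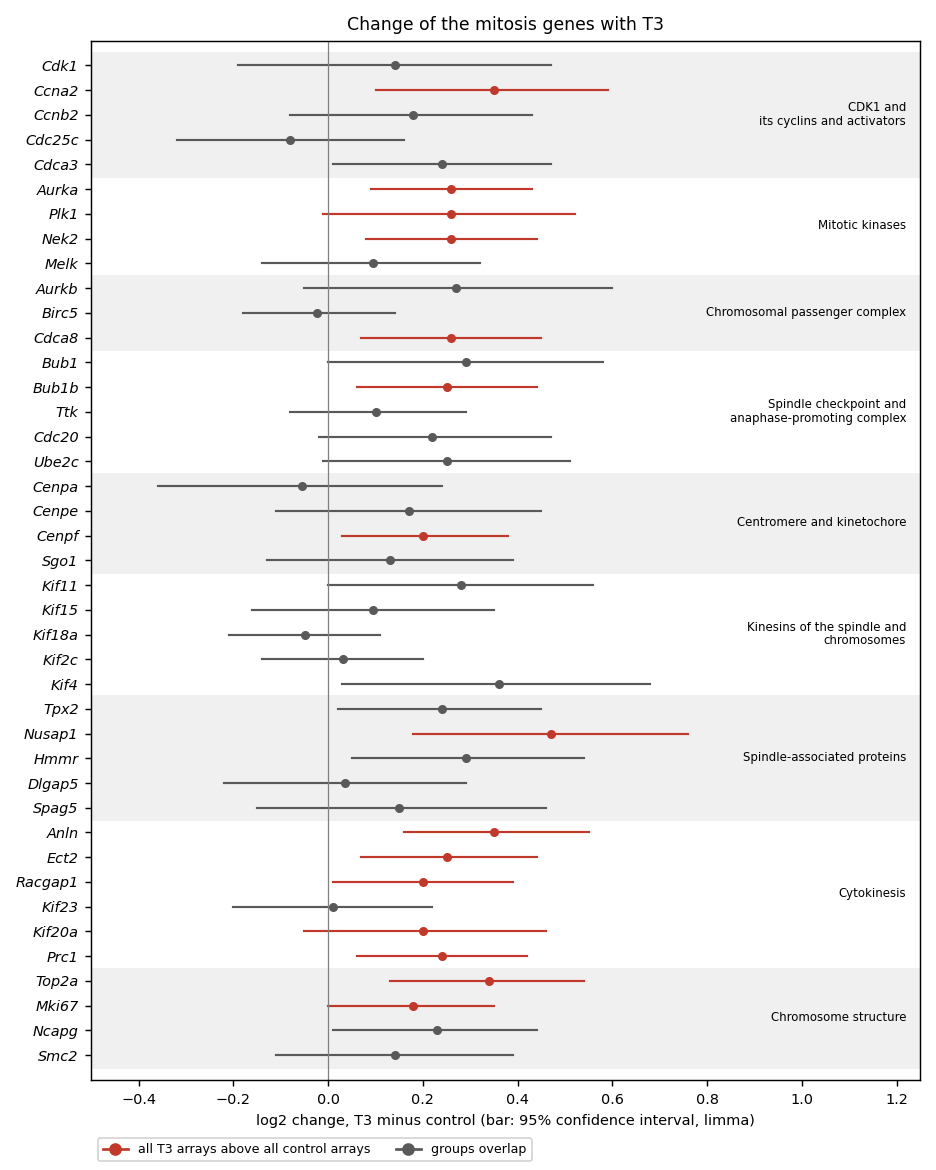
Log2 difference between T3 and control for each of the 41 genes (point) with its 95% confidence interval from limma (bar), grouped by role; red marks the 15 genes whose T3 arrays all lie above their control arrays. Points lie between -0.08 and 0.47 and nearly all are to the right of 0, but many bars reach 0.

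The members moved together from array to array, within groups as well as between them. The mean deviation of the 41 genes from their 6-array means was -0.014 in T3 replicate 1, 0.104 in T3 replicate 2 and 0.195 in T3 replicate 3. In the control arrays it was -0.202 in replicate 1, -0.011 in replicate 2 and -0.072 in replicate 3. T3 replicate 1 thus lay among the controls, just under control replicate 2, and the groups overlapped in this mean. T3 replicate 3 was the highest array for 26 of the 41 genes and control replicate 1 the lowest for 29. T3 replicate 1 exceeded every control for 18 genes, T3 replicate 2 for 28 and T3 replicate 3 for 31. Set against control replicate 2 alone, T3 replicate 1 was higher for 23 of the 41 genes, with a median difference of 0.02, and set against control replicate 1 for 37, with 0.20. One component held 61.2% of the variance of the members within groups, and their mean pairwise correlation within groups was 0.474 over the 6 arrays, a description of genes that share arrays. The mean over all genes varied only from -0.026 to 0.015 between arrays.

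Which arrays are used therefore sets how large the difference looks. The count at an unadjusted p under 0.05 was 6 without control replicate 1, against 9.77% of all genes, and 8 without T3 replicate 3, against 11.4%, and the median difference was then 0.17 and 0.16. Without T3 replicate 1 or without control replicate 2, 27 genes were free of overlap in place of 15. Of all genes, 30.7% were free of overlap in either direction without T3 replicate 1 and 31.7% without control replicate 2. The count of members was 15 without T3 replicate 2, 16 without T3 replicate 3 and 15 without control replicate 1. Without control replicate 3 it was 21. For these last settings the share over all genes was not counted, so these counts cannot be set against it. How much of the rise to 27 comes from using fewer arrays was not tested. Without control replicate 2, 3 members passed (Anln, Nusap1 and Top2a), against 3.21% of all genes, and without T3 replicate 1, 1 passed (Kif4), against 1.98%. When limma weighted arrays by quality, 29 of the 41 genes passed, all higher, against 17.8% of all genes called and 12.3% called higher. In that fit control replicate 1, the array lowest in these genes, had a weight of 6.18 and the other arrays 0.414 to 1.69. In whole spheres, a different share of dividing cells and a different level of these RNAs per cell cannot be told apart.

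**Figure D3:**
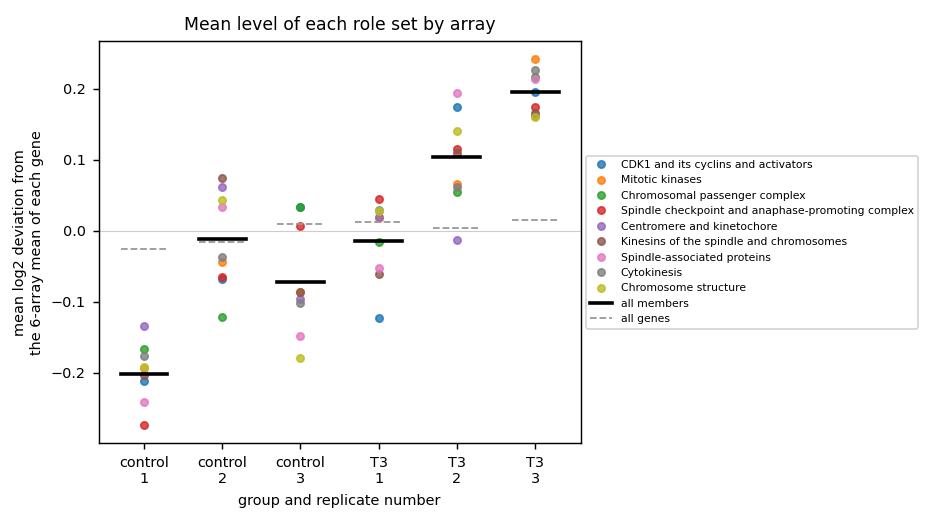
Mean log2 deviation from the 6-array mean of each gene, by array, for the 9 role sets (coloured points), all 41 genes (black bars) and all 19938 genes (dashed grey). The black bar runs from -0.202 in control replicate 1 to 0.195 in T3 replicate 3, and that of T3 replicate 1, at -0.014, sits beside that of control replicate 2, at -0.011.

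Among Cdk1 and its cyclins and activators, cyclin A2 differed most. Ccna2, whose product starts mitosis with Cdk1 (probe set 10497831), had log2 values of 8.58, 8.82 and 8.92 in T3 replicates 1 to 3 and 8.32, 8.40 and 8.57 in the controls. The groups did not overlap, though by only 0.007 between T3 replicate 1 and control replicate 3. Its difference was 0.35 ± 0.11 (SE), with adjusted p = 0.163 (limma). Cdca3, a trigger of the breakdown of the Cdk1 inhibitor Wee1 (probe set 10541729), stood at 6.60, 6.96 and 6.94 in T3 and 6.58, 6.58 and 6.61 in the controls. Here T3 replicates 2 and 3 were high and T3 replicate 1 lay within the tight control range. Cdk1 itself differed by 0.14, with a 95% confidence interval from -0.19 to 0.47, and Ccnb2 by 0.18, from -0.08 to 0.43. Both genes have CHR and CCAAT matches in the sequences above. Cdc25c, the phosphatase that activates Cdk1 (probe set 10458195), was the lowest member, with 4.89, 5.13 and 5.03 in T3 and 5.00, 4.99 and 5.31 in the controls. Its groups overlapped, and its signal was close to the 25th percentile of gene means (5.09), where it is not known to be above background.

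The mitotic kinases were 4 genes with a median difference of 0.26. In 3 of them all T3 arrays lay above all controls, against 11.9% of all genes. Aurka, the aurora kinase of centrosomes and spindle poles (probe set 10490104), had log2 values of 6.95, 6.99 and 7.07 in T3 and 6.67, 6.74 and 6.83 in the controls. Nek2, a kinase that lets centrosomes part (probe set 10352767), had 5.55, 5.59 and 5.78 in T3 and 5.38, 5.40 and 5.35 in the controls. All T3 arrays lay above all controls in both, and both differed by 0.26, with SE of 0.07 and 0.08 and adjusted p (limma) of 0.129 and 0.154. Plk1, the Polo-like kinase, also differed by 0.26, but its T3 arrays stood at 7.72, 7.72 and 8.11, and without replicate 3 the difference was 0.13. Melk, a kinase of dividing progenitors, differed by 0.0941, and control replicate 2 was its highest array.

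In the chromosomal passenger complex, which corrects wrong attachments of chromosomes, Cdca8 and Aurkb had nearly the same difference and Birc5 was level. Cdca8, the borealin gene (probe set 10516246), had log2 values of 6.03, 6.04 and 6.21 in T3 and 5.71, 5.91 and 5.88 in the controls, with no overlap, and a difference of 0.26 ± 0.08 (SE). Aurkb, the kinase of the complex (probe set 10377405), had 7.97, 8.25 and 8.45 in T3 and 7.86, 7.80 and 8.20 in the controls. Its groups overlapped, and its difference was 0.27, with a 95% confidence interval from -0.05 to 0.6. Birc5, the survivin gene (probe set 10382998), was level at 5.54, 5.47 and 5.58 in T3 and 5.53, 5.52 and 5.61 in the controls. Its difference was -0.0233, with a 95% confidence interval from -0.18 to 0.14. The differences between these genes were not tested.

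Genes of the spindle checkpoint and of the anaphase-promoting complex were all above 0, with a median of 0.25 over 5 genes. Bub1b, the checkpoint gene encoding BubR1 (probe set 10474769), stood at 6.98, 6.95 and 6.98 in T3 and 6.56, 6.81 and 6.80 in the controls. The 3 T3 values were nearly equal, and control replicate 1 was the low array. Bub1, a checkpoint kinase (probe set 10487480), had 6.23, 6.40 and 6.60 in T3 and 5.92, 6.33 and 6.12 in the controls, and T3 replicate 1 lay under control replicate 2. Ube2c, the ubiquitin-conjugating enzyme of the complex, differed by 0.25 and Cdc20, its activator, by 0.22. Ttk, the Mps1 kinase that starts the checkpoint, differed by 0.10. All 3 overlapped between groups.

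Centromere and kinetochore genes had a median of 0.15 over 4 genes. In 1 of them all T3 arrays lay above all controls, against 11.9% of all genes. Cenpf, a kinetochore protein made in G2 (probe set 10360985), had log2 values of 6.08, 6.05 and 6.22 in T3 and 5.83, 5.95 and 5.95 in the controls, a difference of 0.20 ± 0.08 (SE) with adjusted p = 0.269 (limma). Cenpe, the kinesin of kinetochores (probe set 10496204), had 5.71, 5.43 and 5.52 in T3 and 5.34, 5.63 and 5.18 in the controls, and here control replicate 2 was above 2 of the T3 arrays. Sgo1, which guards cohesion at centromeres, differed by 0.13. Cenpa, the histone H3 variant that marks centromeres (probe set 10520521), had 7.40, 7.81 and 7.93 in T3 and 7.68, 7.76 and 7.87 in the controls. T3 replicate 1 was its lowest and T3 replicate 3 its highest array, so the difference of -0.0556 rested on T3 replicate 1 and was 0.0997 without it. Its promoter holds 2 CHR and 2 CCAAT matches in the stretch above.

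The kinesins of spindle and chromosomes had the lowest median of the 9 role sets, 0.0948 over 5 genes. None was free of overlap, against 11.9% of all genes with T3 above and 7.55% with T3 below. Kif4, a chromosome-bound kinesin (probe set 10601011), had log2 values of 5.14, 5.62 and 5.66 in T3 and 4.99, 5.26 and 5.10 in the controls, a difference of 0.36 ± 0.14 (SE). T3 replicates 2 and 3 were high and T3 replicate 1 was within the controls; without T3 replicate 1 the difference was 0.52 and passed with adjusted p = 0.0492 (limma), which ran from 0.00337 to 0.676 over all alternatives. The pseudogene Kif4-ps, chosen after its value was seen, differed by 0.016, and shared probe signal was not examined. Kif11, the motor that pushes spindle poles apart (probe set 10462796), had 7.46, 7.70 and 7.74 in T3 and 7.12, 7.56 and 7.38 in the controls, and differed by 0.28. Kif15, which backs up Kif11, differed by 0.0948 and Kif2c, which takes microtubules apart, by 0.0311. Kif18a, which dampens chromosome movement (probe set 10474381), was at 5.97, 6.00 and 6.00 in T3 and 6.03, 6.11 and 5.97 in the controls, a difference of -0.0489.

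Spindle-associated proteins held the member with the largest difference. Nusap1, which bundles spindle microtubules around chromosomes (probe set 10474984), had log2 values of 7.06, 7.37 and 7.44 in T3 and 6.75, 7.04 and 6.68 in the controls. The groups did not overlap, by 0.018 between T3 replicate 1 and control replicate 2, and the difference of 0.47 ± 0.13 (SE) was a 1.38-fold signal with adjusted p = 0.109 (limma). Hmmr, a spindle protein that also binds hyaluronan (probe set 10385248), had 5.55, 5.74 and 5.49 in T3 and 5.18, 5.51 and 5.21 in the controls, and T3 replicate 3 lay just under control replicate 2. Tpx2, the activator of Aurka, differed by 0.24, close to the 0.26 of its partner. Spag5 (astrin) differed by 0.15 and Dlgap5, of spindle fibres at kinetochores, by 0.0356, and both overlapped.

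Cytokinesis genes were the set most often free of overlap, with all T3 arrays above all controls in 5 of 6 genes. Over all genes that share was 11.9%. The median of the set was 0.22, and differences between these small sets were not tested. Anln, the anillin scaffold of the contractile ring (probe set 10591781), had log2 values of 7.46, 7.66 and 7.62 in T3 and 7.18, 7.35 and 7.16 in the controls. The gap between the groups was 0.116 and the difference 0.35 ± 0.09 (SE). Ect2, the exchange factor that activates RhoA at the division plane (probe set 10497520), had 7.16, 7.17 and 7.35 in T3 and 6.90, 7.06 and 6.96 in the controls, with a difference of 0.25 ± 0.08 (SE) and adjusted p = 0.179 (limma). Prc1, which bundles the central spindle, differed by 0.24 ± 0.08 (SE), and Racgap1, the partner of Ect2, and Kif20a, a kinesin of the midzone, both by 0.20. For Kif20a the groups were parted by 0.007 and T3 replicate 3, at 7.55, was far above the other arrays; without it the differences were 0.0738 for Kif20a and 0.12 for Racgap1. The exception was Kif23, the kinesin that forms a complex with Racgap1, at 0.0108 with a 95% confidence interval from -0.20 to 0.22. Its sign turned when arrays were centred on their median or 75th percentile. The difference between Kif23 and Racgap1 was not tested.

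Genes of chromosome structure had a median of 0.20 over 4 genes. Top2a, the topoisomerase that untangles sister chromatids (probe set 10390707), had log2 values of 7.47, 7.54 and 7.58 in T3 and 7.08, 7.36 and 7.14 in the controls. The groups did not overlap, the difference was 0.34 ± 0.09 (SE) and adjusted p was 0.103 (limma). Averaged with its other, dimmer probe set, Top2a differed by 0.18 with adjusted p = 0.521 (limma; from 0.00164 to 0.521 over all alternatives). Mki67, the proliferation antigen that coats mitotic chromosomes, had 7.99, 7.92 and 8.05 in T3 and 7.81, 7.90 and 7.72 in the controls. This gave a difference of 0.18 ± 0.08 (SE), with the groups apart by 0.022. Of the condensin genes, Ncapg (probe set 10521731) had 5.07, 5.33 and 5.24 in T3 and 4.88, 5.11 and 4.98 in the controls, and Smc2 differed by 0.14. Both overlapped between groups.

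**Figure D4:**
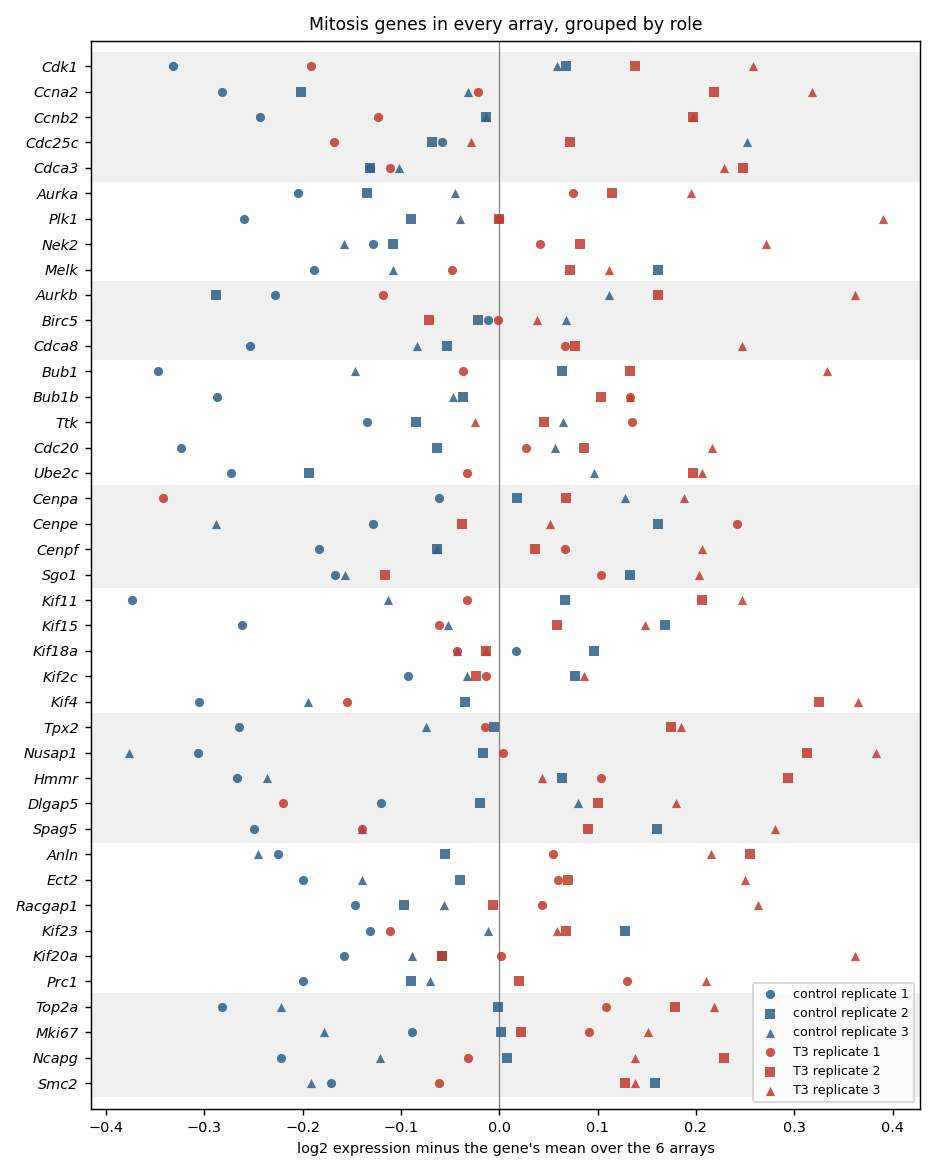
Log2 expression of each of the 41 genes in every array, minus the gene's mean over the 6 arrays; red is T3, blue is control, and the symbol gives the replicate number. The blue circles (control replicate 1) are the lowest point for 29 genes and the red triangles (T3 replicate 3) the highest for 26, with the red circles (T3 replicate 1) mostly in between.

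Brightness and promoter letters went along with the size of the difference only loosely. Of the 20 members above the median gene on the array, 10 were free of overlap and the median difference was 0.24, whereas of the 21 below it 5 were free of overlap and the median was 0.17. The share of all genes free of overlap was not counted by brightness. Brighter genes passed more often in general. An unadjusted p under 0.05 (limma) was found for 21.2% of genes without the dimmest 50%, against 13.7% of all genes. Of the measured members with a promoter, the 29 with a CHR match had a median difference of 0.22 and the 6 without one 0.19. The 25 that held both CHR and CCAAT had a median difference of 0.23 and the 10 that did not had 0.11, over ranges of -0.06 to 0.36 and -0.05 to 0.47. Nusap1, with neither in its window, had the largest difference of all members and Cenpa, with both, one of the lowest.

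Other genes of mitosis, outside the list, were also mostly above 0, by less. Of 61 further measured mitosis genes, 47 lay above 0 with a median of 0.0786, and 0 passed the limma test in either direction, with 12 at an unadjusted p under 0.05, of which 11 were higher. All T3 arrays lay above all controls in 10 of the 61 (16.4%). Over all genes, 53.3% lay above 0 and 11.9% had all T3 arrays above. An unadjusted p under 0.05 was found for 13.7% of all genes, and for 8.92% in the higher direction. These shares describe the list and are no test of it. Both lists were chosen with earlier results of these data known, and what that choice adds to the larger median of the members was not tested. The 4 with the smallest p were Aspm, a spindle pole protein of neural progenitors, at 0.36 ± 0.09 (SE), the kinesin Kif18b at 0.30, Gtse1, a microtubule protein of G2, at 0.28 and the scaffold Iqgap3 at 0.24. Their adjusted p (limma) ran from 0.0877 to 0.153.

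Genes of the phase before had a median difference close to that of all genes. Of 48 measured G1/S and DNA replication genes, 29 (60.4%) lay above 0, against 53.3% of all genes, and the median was 0.0137, against 0.00877. By the limma test 0 passed and 3 had an unadjusted p under 0.05, against 13.7% of all genes. The 4 with the smallest p were the cyclin gene Ccne1 at 0.22, the helicase gene Mcm2 at 0.21, Rrm2, of nucleotide synthesis, at 0.35 and the chromatin assembly gene Chaf1b at 0.25. Their mean deviations by array had a narrower range than those of the mitosis genes, from -0.083 in T3 replicate 1 to 0.071 in T3 replicate 3. The difference between the lists was not tested, and genes of a list are not replicates.

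**Figure D5:**
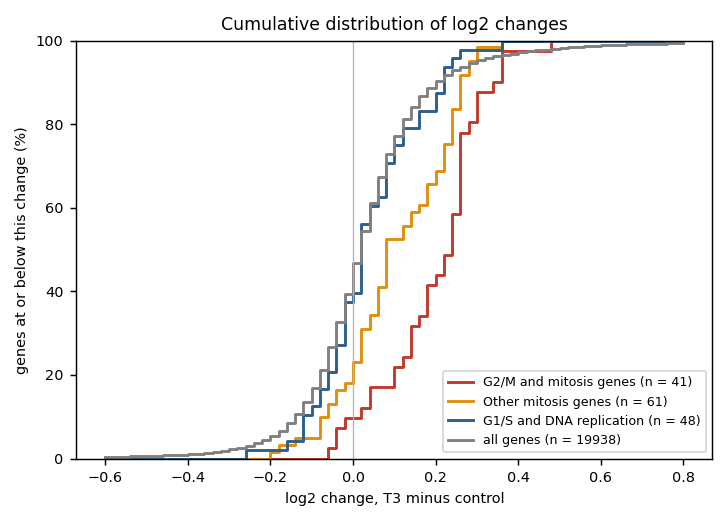
Cumulative share of genes, in percent, at or below each log2 difference between T3 and control, for the 41 mitosis genes (red), 61 further mitosis genes (orange), 48 G1/S and DNA replication genes (blue) and all 19938 genes (grey). The red curve lies to the right with its median at 0.22, the orange one between, with 0.0786, and the blue one beside the grey.

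Among 26 measured transcription factors of the cell cycle, 1 rose by the limma test, where 2.28% of all genes were called higher. Mycn, a Myc family gene of growing neural progenitors (probe set 10399421), had log2 values of 7.77, 7.60 and 7.64 in T3 and 7.01, 6.96 and 7.19 in the controls. Its groups were far apart, and it rose by 0.62 ± 0.09 (SE), 1.53-fold, with adjusted p = 0.00847 (limma). Without control replicate 1 the difference was 0.59 and Mycn no longer passed (adjusted p = 0.0553, limma; from 0.000185 to 0.0553 over all alternatives). Mybl2, which joins MuvB at CHR promoters, differed by 0.27 (adjusted p = 0.214), E2f2 by 0.21 and E2f1 by 0.17, and Foxm1, the factor that joins them in G2 and was chosen after its value was seen, by 0.20 (adjusted p = 0.455). Of the 26 factors, 18 (69.2%) lay above 0, against 53.3% of all genes, and the list median was 0.0468. Of 17 measured cyclin kinase inhibitors and antiproliferative genes, 9 lay above 0 and 8 below, with a median of 0.0186. In this list 0 passed the limma test and 2 had an unadjusted p under 0.05, against 13.7% of all genes. Those 2 were Btg2 at -0.19 and Btg1 at -0.22, antiproliferative genes of differentiating cells, and the inhibitor gene Cdkn2c and the stress gene Gadd45g stood at -0.18 and -0.19 (adjusted p up to 0.61). Without T3 replicate 1 these last values were -0.0566 for Cdkn2c and -0.0528 for Gadd45g.

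The cell types of the spheres were read from marker genes. Ret and Sox10, of enteric neural progenitors, and Tubb3, of neurons, had control means of 11.20 ± 0.07 (SD, n = 3), 11.62 ± 0.04 (SD, n = 3) and 10.85 ± 0.05 (SD, n = 3), above the 75th percentile of gene means (8.76), as had the fibroblast gene Col1a1. The leukocyte gene Ptprc at 4.89 and the epithelial gene Epcam at 4.37 lay under the 25th percentile (5.09). The median control levels of their lists, 5.15 and 5.31, lay above it, and the highest were 6.42 and 7.15. Median differences were -0.0101 for 11 enteric progenitor markers, 0.0749 for 14 neuron markers, -0.00868 for 8 glia markers, -0.0212 for 12 fibroblast markers, 0.27 for 10 smooth muscle markers and 0.13 for 9 endothelial markers. The last 2 lists were split: 3 smooth muscle markers rose and 2 fell by the limma test, over a range of -0.72 to 0.6, and 1 endothelial marker rose and 2 fell, over a range of -0.7 to 0.42. In the other lists 1 progenitor, 2 neuron, 2 glia and 1 fibroblast marker rose and 1 fibroblast marker fell. Leukocyte and epithelial markers had medians of 0.00227 and -0.0217, and in each list 0 passed and 1 had an unadjusted p under 0.05 (limma). Over all genes, 2.28% were called higher and 0.823% lower, and 13.7% had an unadjusted p under 0.05. Like the mitosis genes, the smooth muscle and glia markers (mean deviation -0.124 in both) and the fibroblast markers (-0.049) were lowest in control replicate 1. The same held for the leukocyte markers (-0.036) and for the mean over all genes (-0.026), which was highest in T3 replicate 3 (0.015). The fibroblast markers were also highest in T3 replicate 3 (0.035), while the smooth muscle markers were highest in T3 replicate 2 (0.106) and the glia markers in T3 replicate 1 (0.082). The neuron markers ranged from -0.221 in control replicate 3 to 0.138 in T3 replicate 1. The part of cell type shares in the differences of the mitosis genes was not tested.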

How the data were processed

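RNA of 6 samples was hybridised to Affymetrix mouse gene arrays, 1 array each. The deposited values are log2 expression per probe set, made by the authors with RMA, and Partek 6.5 is named per the submitters' processing notes. Neither its settings nor the build is given in the sources used here. Quantile normalization, if used, makes the arrays alike in distribution, so a shift of all genes cannot be seen.

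Of 35556 probe sets, 21789 carried 1 gene symbol in the platform annotation, 1621 several and 12146 none, and those with 1 gave 19938 genes. The number of unmapped sample columns was 0. Group differences come from lmFit and eBayes of limma 3.58.1 (R 4.3.3), as two-sided tests adjusted over all genes by Benjamini-Hochberg; the fit was also tested on simulated data. Nothing says that the samples came from separate animals across groups, so p-values reflect only the spread among these samples, which may be technical. Samples with the same replicate number deviated together with correlations of 0.179, 0.017 and 0 over all genes, and since every pair would have to exceed 0.1 and only pair 1 did, they were not treated as pairs.

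Array values are given for the 2 members of smallest p in each role set, for every member below 0 and for Hr and Klf9; of each comparison list up to 4 genes of smallest p are named, by their differences (Mycn, the only one of them that passed, with array values). The members and lists were chosen with earlier results of these data known. Array values of Plk1 and Mki67, the genes Foxm1, Kif4-ps, Ret, Sox10, Tubb3, Col1a1, Ptprc and Epcam, and the printed promoters were chosen after values or matches were seen. Alternatives were another normalization or centring, filters on dim genes, the mean over probe sets, trend and robust fitting, array weights, a replicate block and leaving out each array.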

Additional observations from a re-analysis of the deposited data

How the results depend on the processing

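With array quality weights, 3548 genes were called in place of 618, 29 members passed, 34 had an unadjusted p under 0.05 (33% of all genes, 20.4% higher), and the medians were 0.33 for the members, 0.19 for other mitosis genes and 0.1 for G1/S genes; Cdc25c (0.0509) and Cenpa (0.11) changed sign. Without the dimmest 50% of genes, 20 members were tested, of which 2 passed (Anln and Top2a, against 7.47% of all genes), 19 lay above 0 and 10 had an unadjusted p under 0.05 (21.2% of all genes), fewer genes being tested; the medians were 0.0082 for other mitosis genes and -0.0622 for inhibitors. After renewed quantile normalization 1 member passed (Anln, against 3.4% of all genes) and Birc5 stood at 0.0129. Kif23 stood at -0.0156 with arrays centred by median and at -0.0195 by 75th percentile. Leaving out 1 array gave 191 to 640 genes called (0.958% to 3.21% of all genes) and 0 to 3 members passing. Of the members, 6 to 23 had an unadjusted p under 0.05 (limma), against 9.77% to 15.1% of all genes. Members above 0 numbered 33 to 39 and those without overlap 15 to 27, and the shares over all genes were not counted for every such fit. With 1 array left out, medians were 0.16 to 0.26 for the members and 0.0506 to 0.16 for other mitosis genes. Signs turned in that way for Birc5 (-0.0501 to 0.00715), Cdc25c (-0.14 to 0.0257), Cenpa (-0.16 to 0.0997), Dlgap5 (-0.0437 to 0.16), Kif15 (-0.0121 to 0.2), Kif23 (-0.0512 to 0.0781) and Kif2c (-0.00953 to 0.0783). The causes were not tested, except that leaving out arrays leaves fewer samples. With the replicate number as a block, 472 genes (2.37%) and 0 members passed. In that fit 24 members had an unadjusted p under 0.05 (limma), against 13.5% of all genes, 8.9% in the higher direction. Not every sample correlated best with its own number. The members' median stayed between 0.16 and 0.33 over all alternatives. Members with a CHR match numbered 27 in place of 30 in the narrower window. Members near the 25th percentile of signal may be compressed by background, which these files do not measure.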
